A study of Homo sapiens with 6 samples.

Results

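The 9 p53 target genes described here were examined in SH-SY5Y cells, a human neuroblastoma line, after knockdown of the RNA-binding protein PSF. The set is CDKN1A, MDM2, CCNG1, SESN1, GDF15, ZMAT3, RRM2B, TP53INP1 and FDXR, chosen by gene symbol, and all 9 were among the 21301 genes of the RNA-seq table and passed the filter on low counts. CCNG1 rose 1.77-fold and was higher in every siPSF library than in every control, as for 16.7% of all tested genes. SESN1 rose 1.42-fold and FDXR 1.57-fold, and the other 6 did not pass the test, which 6.65% of all tested genes passed as higher. In the 6 fits that each left out 1 library, SESN1 passed in 1 and FDXR in 2. Replicates 1 and 2 of siPSF held 8 of the 9 genes above all controls, as for 23.1% of all tested genes. For 6 of these 8, replicate 3 of siPSF was not above the controls, a pattern of 6.41% of all tested genes.

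RNA was taken 72 h after transfection with 10 nM siControl or siPSF, as 3 libraries per group. A figure legend of the paper calls these biological triplicates. The siPSF was a single siRNA sequence, number 2 in the methods. Both groups were the same established line and, by their labels, differed only in the siRNA. No other siRNA and no rescue was among the libraries analysed here. The p-values below measure the spread between these libraries. In RNA from whole cultures, fewer cells that express a gene and less RNA per cell cannot be told apart.

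p53 is a transcription factor that DNA damage and other stresses stabilise. It binds DNA as a tetramer, and its targets halt the cell cycle, repair DNA, change metabolism, kill the cell or, through MDM2, return p53 itself to a low level. PSF, encoded by SFPQ, is a nuclear protein of the paraspeckle that takes part in transcription and RNA processing.

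The sequence feature that such targets share is the p53 full-site consensus, 20 bases long with a CNNG core in each of its decamers, and it reads the same on both strands. The region within 2500 bases of each start site of the RefSeq promoter table (GRCh38.p14) was searched in hg38, allowing up to 3 mismatches with both cores intact. Of the 9 genes, 7 had a start site in that table, and RRM2B and TP53INP1 had none. The best match of each of the 7 is printed 5′ to 3′ on the strand of its gene, with the CNNG cores in capitals, because such a site near the start is the sequence feature these targets are known for. Each distance is to the nearest start site of that gene in the promoter table. For MDM2, SESN1 and ZMAT3 that is an inner start site of the promoter table, and the match lies downstream of the outermost one there. The CDKN1A and GDF15 distances are also not from the gene's outermost start. The CDKN1A match covers the RefSeq start of the gene, at 36676463. In GENCODE GDF15 begins at 18374731, upstream of its match.
CDKN1A, chr6:36676449-36676468, 2 mismatches, 2265 bases upstream: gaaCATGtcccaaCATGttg
MDM2, chr12:68808923-68808942, 2 mismatches, 94 bases upstream: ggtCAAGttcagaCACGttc
CCNG1, chr5:163437926-163437945, 1 mismatch, 331 bases downstream: gcaCAAGcccaggCTAGtcc
SESN1, chr6:109009018-109009037, 3 mismatches, 49 bases upstream: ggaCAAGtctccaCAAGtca
GDF15, chr19:18385308-18385327, 2 mismatches, 850 bases upstream: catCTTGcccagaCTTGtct
ZMAT3, chr3:179070188-179070207, 0 mismatches, 865 bases upstream: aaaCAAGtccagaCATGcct
FDXR, chr17:74872996-74873015, 3 mismatches, 21 bases upstream: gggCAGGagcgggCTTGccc

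The ZMAT3 match was the only one of the 7 without a mismatch, a grade that 0.117% of the 27305 genes searched also reached. With up to 2 mismatches 5 of the 7 genes had a match, against 4.59% of all genes searched. With up to 3 mismatches all 7 had one, against 22.6% of all genes, so matches like those of SESN1 and FDXR are common. By the GENCODE annotation the MDM2, CCNG1, SESN1, GDF15 and ZMAT3 matches lay inside their own gene in no exon, and those of CDKN1A and FDXR touched an exon of at least 1 transcript. The MDM2 match lies just before the inner start site of MDM2, in the first intron, and the 235 bases around it (chr12:68808767-68809001, plus strand) are printed with the match in capitals to show its setting.
MDM2: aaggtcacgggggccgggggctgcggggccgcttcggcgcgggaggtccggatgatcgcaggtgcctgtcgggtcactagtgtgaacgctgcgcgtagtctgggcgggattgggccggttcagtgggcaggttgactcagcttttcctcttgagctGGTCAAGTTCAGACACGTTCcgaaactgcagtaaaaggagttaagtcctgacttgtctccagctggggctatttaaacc
A match is a run of letters and not a measured binding site, since no p53 binding was measured here.

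The libraries held between 101540520 and 132420931 counts, and every member had at least 2721 counts in each, so counting error is small beside the spread between libraries. Levels are given as CPM, each count as a share of its library's TMM-scaled total. SFPQ, the target of the siRNA (gene ID 6421, chromosome 1 from 35176380 to 35193145), stood at 372, 356 and 401 CPM in siControl and 209, 193 and 165 CPM in siPSF. It fell by 0.99 on the log2 scale, with an adjusted p of 9.51e-05 in edgeR's quasi-likelihood test and a standard error of 0.10. Of 11 markers of noradrenergic neuroblastoma cells, all were in the table and only TH was under 1 CPM in every library. Of 10 markers of the mesenchymal type, 8 were in the table. TWIST1, at 170.1 to 210.4 CPM, was the only one of those above 12 CPM. PTPRC, GFAP and PECAM1, markers of blood, glia and endothelium, were not in the table, and the other 3 markers of other cells, CD68, EPCAM and KRT18, summed to 4.11 to 5.80 CPM in siControl and 6.51 to 8.03 CPM in siPSF.

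One library has to be described before the results. For the 9 p53 targets, siPSF replicate 3 stood apart from siPSF replicates 1 and 2. The summed level of the 9 genes was 1356 to 1476 CPM in siControl, 2075 and 2185 CPM in siPSF replicates 1 and 2, and 1284 CPM in siPSF replicate 3. The median log2 ratio of the 9 genes to the siControl mean was 0.52, 0.62 and -0.07 in siPSF replicates 1, 2 and 3. Over the 14679 genes that averaged 1 CPM or more, siPSF replicate 3 was nearer to the other siPSF libraries, with a median absolute log2 difference of 0.141 and 0.167 from replicates 1 and 2, than to any siControl library, where it was 0.220 to 0.243. The grouping was not clean, since siPSF replicate 2 was nearer to siControl replicate 1, at 0.156, than to siPSF replicate 3. Replicate 3 of siPSF had the lowest SFPQ level of the 6 libraries and the smallest total count. The noradrenergic markers also set it apart, with a median log2 ratio of 0.25 against -0.08 and -0.09 in replicates 1 and 2. CHGA and CHGB, chosen after their values were seen, were highest in it, CHGA at 1019 CPM against 517 to 745 CPM in the other 5 libraries. The part of these differences in the results below was not tested. The 9 genes and the counts of the gene lists are given with and without this library. Because it was singled out by its low values for these same p53 targets, leaving it out tends to raise their fold changes and narrow their spread. Their adjusted p-values without it are therefore a description and not a test.

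**Figure D1:**
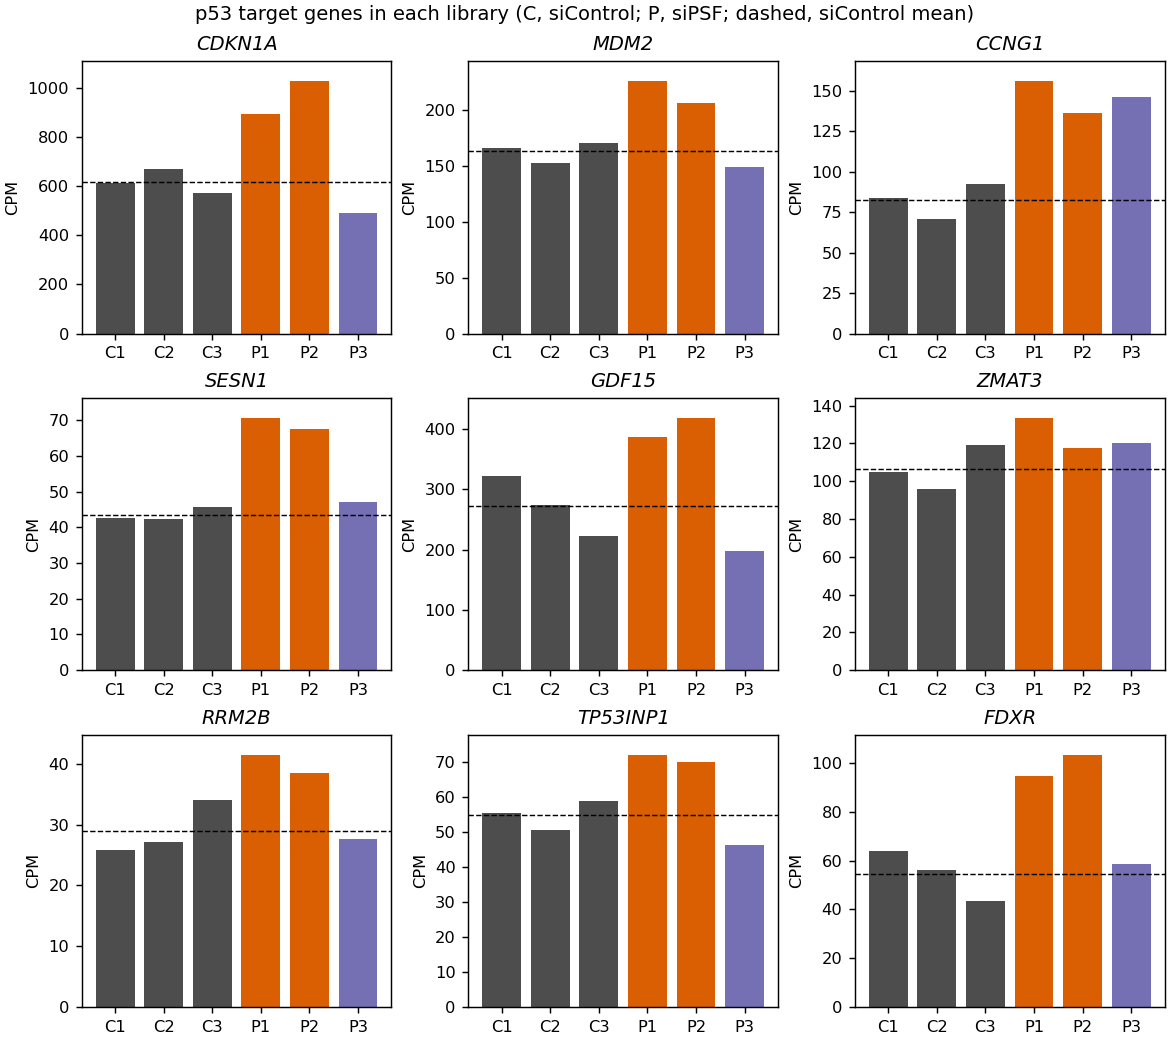
Levels of the 9 p53 target genes in each library, in CPM, with siControl replicates 1 to 3 (C1 to C3, grey), siPSF replicates 1 and 2 (P1 and P2, orange) and siPSF replicate 3 (P3, purple), and the siControl mean as a dashed line. P1 and P2 lie above all siControl libraries for 8 of the 9 genes, and P3 lies above the siControl range for CCNG1, SESN1 and ZMAT3 only.

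Of the 9 genes, CCNG1, SESN1 and FDXR were called higher in siPSF and 0 were called lower, at an adjusted p under 0.05 in edgeR's quasi-likelihood test over 19694 genes. Over all tested genes 6.65% were called higher and 8.27% lower, 14.9% in either direction. At an unadjusted p under 0.05, 4 of the 9 genes were higher, against 14.4% of all tested genes, and 0 were lower. DESeq2 and limma also called 0 of the 9 lower. The median log2 fold change of the 9 genes was 0.31, against 0.01 over all tested genes. Without siPSF replicate 3, 8 of the 9 genes were called higher, all but ZMAT3, where 7.07% of all tested genes were called higher and 8.73% lower (15.8% in either direction), and the median of the 9 was 0.56. The count also rested on other libraries: it was 2 without siControl replicate 1, and 1, CCNG1 alone, without siControl replicate 2 or 3 or siPSF replicate 1 or 2.

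The first genes act on p53 itself. CCNG1 (gene ID 900, chromosome 5 from 163437571 to 163457640 in GRCh38) encodes cyclin G1, which brings a phosphatase to MDM2. The siControl libraries held 83.9, 71.0 and 92.3 CPM and the siPSF libraries 156, 136 and 146 CPM. Every siPSF library lay above every siControl library, as for 16.7% of all tested genes, and siPSF replicate 3 was between the other siPSF libraries. The means were 82.4 ± 10.7 and 146 ± 9.89 CPM (SD, n = 3 each), and in edgeR's fit the gene rose by 0.83 on the log2 scale (95% interval 0.60 to 1.05, standard error 0.10, adjusted p = 3.57e-04 in edgeR's test). Without siPSF replicate 3 the log2 fold change was 0.83, and the call held whichever of the 6 libraries was left out, at an adjusted p of at most 0.00329.

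MDM2 encodes the ubiquitin ligase that marks p53 for breakdown (gene ID 4193, chromosome 12 from 68808172 to 68850686). It was measured at 166, 153 and 170.2 CPM in siControl against 226, 206 and 149 CPM in siPSF. Replicates 1 and 2 of siPSF were above all siControl libraries, and replicate 3 was below all of them. The log2 fold change of 0.25 (95% interval -0.03 to 0.53, standard error 0.13) was not called, at an adjusted p of 0.221 in edgeR's test. Without siPSF replicate 3 it was 0.40 (adjusted p = 0.00641).

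CDKN1A encodes p21, the inhibitor of cyclin-dependent kinases through which p53 halts the cell cycle (gene ID 1026, chromosome 6 from 36676463 to 36687332). The siControl libraries held 612, 671 and 570.4 CPM and the siPSF libraries 894, 1027 and 491 CPM. In percent of the siControl mean the siPSF libraries stood at 145, 166 and 79.5, so this gene spanned both sides of the control range. The means of 618 ± 50.4 and 804 ± 279 CPM (SD, n = 3 each) gave a log2 fold change of 0.38 (95% interval -0.05 to 0.81, standard error 0.20, adjusted p = 0.225 in edgeR's test), which was not called. With siPSF replicates 1 and 2 alone it was 0.64, or 1.56-fold, at an adjusted p of 6.21e-04.

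Among the genes for repair, metabolism and redox balance, SESN1 and FDXR were called. SESN1 encodes sestrin 1, which restrains mTORC1 signalling (gene ID 27244, chromosome 6 from 108984309 to 109094846). It stood at 42.7, 42.2 and 45.6 CPM in siControl and at 70.6, 67.6 and 47.2 CPM in siPSF. The groups did not overlap, as for 16.7% of all tested genes in this direction (17.8% in the other), but siPSF replicate 3 was above the highest control by a narrow margin. Between the groups the log2 fold change was 0.51 (95% interval 0.22 to 0.79, standard error 0.13, adjusted p = 0.0230 in edgeR's test) and 0.67 without siPSF replicate 3 (adjusted p = 1.51e-04). Leaving out any 1 of the other 5 libraries ended the call, with adjusted p-values of 0.0527 to 0.102, as did limma on rescaled FPKM (0.0890).

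FDXR encodes ferredoxin reductase, a mitochondrial enzyme of electron transfer to steroid and iron-sulfur pathways (gene ID 2232, chromosome 17 from 74862497 to 74872994). Its siControl levels were 64.1, 56.1 and 43.4 CPM and its siPSF levels 94.8, 103 and 58.5 CPM. Replicate 3 of siPSF lay within the control range, and the other siPSF libraries were above it. A log2 fold change of 0.65 resulted (95% interval 0.24 to 1.06, standard error 0.19, adjusted p = 0.0355 in edgeR's test), with 0.86 without siPSF replicate 3 (adjusted p = 2.35e-04). The call was lost without siControl replicate 2 or 3 or siPSF replicate 1 or 2, at adjusted p-values of 0.0907 to 0.161, and also when no filter on low counts was used (0.0700) and on FPKM (0.0894 to 0.135).

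RRM2B encodes the p53-inducible small subunit of ribonucleotide reductase, which supplies nucleotides for repair (gene ID 50484, chromosome 8 from 102204501 to 102238961). The libraries held 25.8, 27.2 and 34.0 CPM in siControl and 41.5, 38.6 and 27.6 CPM in siPSF. Replicate 3 of siPSF again lay within the control range and the other siPSF libraries above it. A log2 fold change of 0.31 (95% interval -0.02 to 0.63, standard error 0.15) was not called (adjusted p = 0.190 in edgeR's test). Without siPSF replicate 3 it was 0.47 (adjusted p = 0.0143).

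The remaining genes act in RNA binding, cell death and signalling between cells. ZMAT3 encodes a zinc-finger protein that binds RNA (gene ID 64393, chromosome 3 from 179017223 to 179072513), and its levels were 105, 95.9 and 119 CPM in siControl and 133, 118 and 120.0 CPM in siPSF. Here siPSF replicate 3 did not stand apart from the other siPSF libraries, and siPSF replicate 2 overlapped the controls. Its log2 fold change of 0.22 (95% interval 0.01 to 0.42, standard error 0.10) had an unadjusted p of 0.0437 and an adjusted p of 0.155 in edgeR's test, and it was not called when any 1 library was left out.

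TP53INP1 encodes a stress protein that works with p53 and in autophagy (gene ID 94241, chromosome 8 from 94925972 to 94949378). It was measured at 55.4, 50.6 and 59.0 CPM in siControl and 72.1, 70.2 and 46.4 CPM in siPSF. Replicates 1 and 2 of siPSF were above the control range and replicate 3 below it. For TP53INP1 the log2 fold change was 0.19 (95% interval -0.12 to 0.51, standard error 0.14, adjusted p = 0.399 in edgeR's test) with all libraries, 0.37 without siPSF replicate 3 (adjusted p = 0.0141) and -0.02 on rescaled FPKM.

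GDF15 encodes a secreted stress cytokine of the TGF-beta family, whose receptor GFRAL was not in the table (gene ID 9518, chromosome 19 from 18386158 to 18389176). The controls spread widely, at 321, 274 and 223 CPM, and the siPSF libraries held 387, 418 and 197 CPM. Replicate 3 of siPSF was the lowest of all 6 libraries and replicates 1 and 2 were the highest. With all libraries the log2 fold change was 0.29 (95% interval -0.19 to 0.77, standard error 0.22, adjusted p = 0.408 in edgeR's test), which leaves room for a fall as well as a rise, and 0.56 without siPSF replicate 3 (adjusted p = 0.00520).

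**Figure D2:**
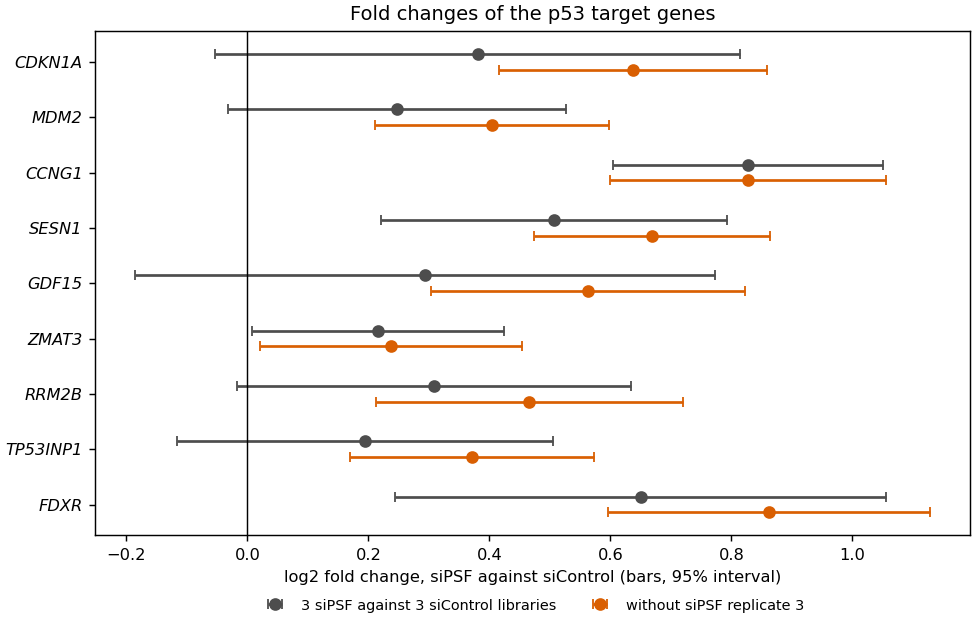
Log2 fold change of each p53 target gene, siPSF against siControl, with its 95% interval, from all 6 libraries (grey) and without siPSF replicate 3 (orange). For CDKN1A, MDM2, GDF15, RRM2B and TP53INP1 the grey interval includes 0 and the orange one does not, and for CCNG1 both points are at 0.83. Replicate 3 was singled out by its values for these genes, so the orange intervals are a description.

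Across the 9 genes, siPSF replicates 1 and 2 were both above every siControl library for 8, all but ZMAT3. Replicate 3 was the lowest siPSF library for 7 of the 9, against 38.6% of all tested genes. It was above the siControl range for CCNG1, SESN1 and ZMAT3, within it for RRM2B and FDXR, and below it for CDKN1A, MDM2, GDF15 and TP53INP1. These counts describe a pattern noticed in these libraries and carry no test.

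Levels can be compared between genes only per length, so the deposited FPKM values were used for their order in siControl. CDKN1A was highest at 271 ± 16.8 FPKM (SD, n = 3), followed by GDF15 at 210.4 ± 34.9 FPKM. Both were far above the rest, and their own ranges did not overlap. CCNG1 at 32.0 ± 4.67 and FDXR at 27.2 ± 4.70 FPKM overlapped. MDM2 followed at 18.8 ± 1.16 FPKM and SESN1 at 13.3 ± 0.580 FPKM. ZMAT3 at 11.01 ± 1.46 and TP53INP1 at 9.13 ± 0.898 FPKM overlapped, and RRM2B was lowest at 5.66 ± 0.999 FPKM.

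Many other known p53 targets were also above the controls in siPSF replicates 1 and 2 and not in replicate 3. These were 31 of the 49 measured, against 6.41% of all tested genes. Of 53 other p53 targets listed by role, 49 were in the table (TNFRSF10D, PERP, PANDAR and TP53COR1 were not analysed here). By edgeR 8 were called higher and 0 lower, beside the 6.65% and 8.27% of all tested genes. At an unadjusted p under 0.05, 19 were higher, against 14.4% of all tested genes, and 0 lower. Without a filter on low counts edgeR called 3 higher (CMBL, FBXW7 and BBC3) and 0 lower. DESeq2 called 11 higher and 0 lower, and limma on FPKM called CMBL and BBC3 higher and 0 lower, or 1 lower once FPKM was rescaled. Over the 14830 genes that limma tested on log2(FPKM + 0.5), 736 were called higher and 1782 lower. The shares of all genes called by DESeq2 or without a filter are not given here. The 6.65% and 8.27% are from edgeR with its filter and are no background for those counts. Their median log2 fold change was 0.30, and without siPSF replicate 3 it was 0.45. Without that library 31 of 49 were called higher, against 7.07% of all tested genes. Their median log2 ratios in siPSF replicates 1, 2 and 3 were 0.42, 0.46 and -0.08, beside 0.52, 0.62 and -0.07 for the 9 genes. Replicate 3 was the lowest siPSF library for 45 of the 49, against 38.6% of all tested genes, and not for SFN, ANKRA2, PMAIP1 and SCO2. The lists were drawn up with earlier results of these data known, so they are a description.

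Among 15 targets in arrest and repair, 3 were called higher, and 9 without siPSF replicate 3, beside 6.65% and 7.07% of all tested genes. CMBL, a hydrolase, was at 48.5, 43.3 and 40.5 CPM in siControl and 72.7, 78.8 and 57.6 CPM in siPSF. The groups did not overlap, as for 16.7% of all tested genes in this direction. The log2 fold change of CMBL was 0.66 (adjusted p = 0.00323 in edgeR's test, standard error 0.12), and the call held without any 1 library. RPS27L, a ribosomal protein relative, had a log2 fold change of 0.56 (adjusted p = 0.0362, edgeR) and was called in only 2 of 6 fits that left out 1 library. FBXW7, the substrate-binding part of a ubiquitin ligase, had 0.33 (adjusted p = 0.0341, edgeR), and was likewise called in 2 of 6.

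Among 15 measured targets in apoptosis, 3 were called higher, and 10 without siPSF replicate 3, beside 6.65% and 7.07% of all tested genes. BBC3, which encodes the BH3-only protein PUMA, stood at 55.3, 45.7 and 42.6 CPM in siControl and 83.1, 85.1 and 61.5 CPM in siPSF. The groups did not overlap, as for 16.7% of all tested genes in this direction. The log2 fold change of BBC3 was 0.68 (adjusted p = 0.00529 in edgeR's test, standard error 0.13), and the call held without any 1 library. TRIAP1, a small inhibitor of apoptosis, had a log2 fold change of 0.47 (adjusted p = 0.0319, edgeR). PIDD1, a scaffold for caspase activation, had 0.51 (adjusted p = 0.0400, edgeR). Both of these were called in 2 of 6 fits that left out 1 library.

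Among 15 measured targets in metabolism and other roles, 2 were called higher, and 10 without siPSF replicate 3, beside 6.65% and 7.07% of all tested genes. PPM1D, the phosphatase WIP1 that switches off p53 signalling, had a log2 fold change of 0.39 (adjusted p = 0.0316, edgeR). TRIM22, an antiviral ubiquitin ligase, had 1.32 (adjusted p = 0.0313, edgeR) at 0.353, 0.210 and 0.310 CPM in siControl and 0.749, 1.05 and 0.375 CPM in siPSF. Both were called in 2 of 6 fits that left out 1 library. For RPS27L, TRIAP1, PIDD1, PPM1D and TRIM22 the fits that lost the call were those without siControl replicate 2 or 3 or siPSF replicate 1 or 2, with adjusted p-values from 0.0666 to 0.167. Without a filter on low counts none of these 5 was called (adjusted p = 0.0522 to 0.0737, edgeR). For FBXW7 they were those without siControl replicate 1 or 2 or siPSF replicate 1 or 2, with 0.0626 to 0.162.

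Of 4 measured noncoding targets, 0 were called by edgeR, DESeq2 or limma. At an unadjusted p under 0.05 in edgeR 2 were higher, against 14.4% of all tested genes. With siPSF replicate 3 left out, 2 were called higher by edgeR, against 7.07% of all tested genes. NEAT1, the RNA scaffold of paraspeckles, was chosen after its values were seen because PSF is a paraspeckle protein. It was at 308, 316 and 329 CPM in siControl and 442, 427 and 300.2 CPM in siPSF, with siPSF replicate 3 below all controls. Its log2 fold change was 0.29 (95% interval 0.02 to 0.57, standard error 0.13, adjusted p = 0.141 in edgeR's test) and 0.45 without siPSF replicate 3 (adjusted p = 0.00271).

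**Figure D3:**
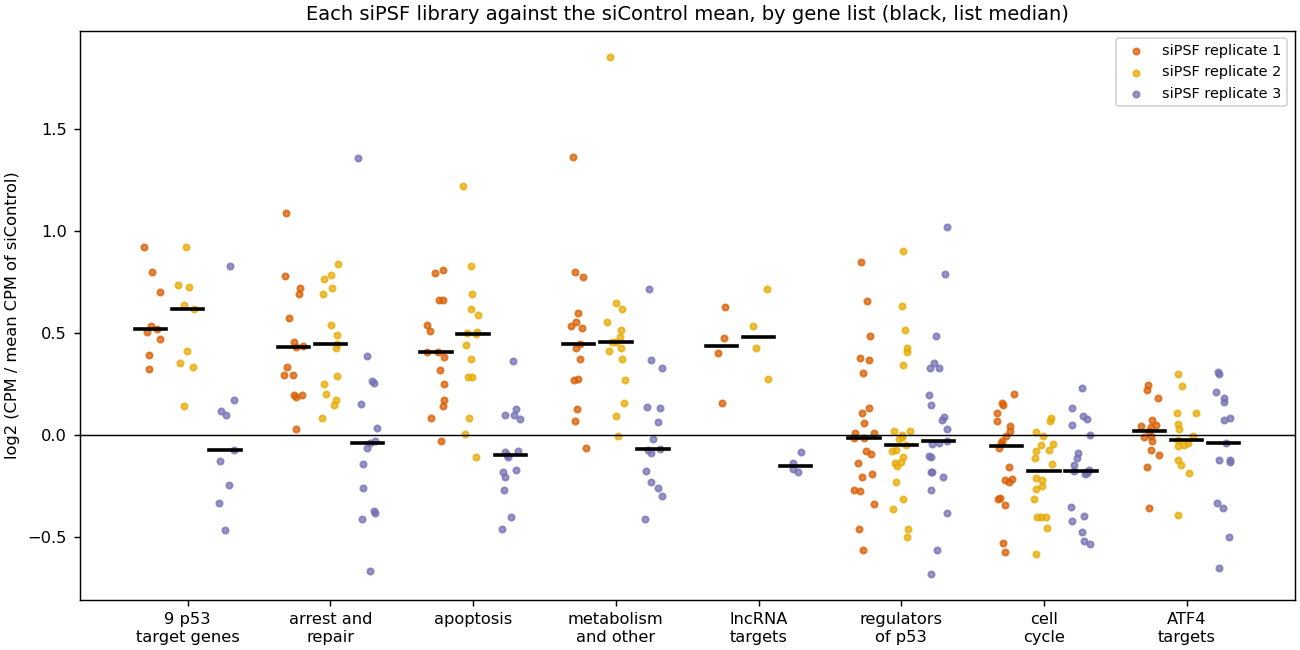
Log2 ratio of each gene's CPM in siPSF replicate 1 (orange), 2 (yellow) and 3 (purple) to the siControl mean, by gene list, with 1 point per gene and a black bar at the list median. In the lists of p53 targets the medians of replicates 1 and 2 lie between 0.41 and 0.62 and those of replicate 3 between -0.15 and -0.04, while the 3 medians lie close together for the regulators of p53.

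Among the regulators of p53, 1 of 23 measured genes was above all controls in siPSF replicates 1 and 2 and not in replicate 3, near the 6.41% of all tested genes. The same count was 31 of the 49 other p53 targets and 6 of the 9 genes. MDM4, ATM and G3BP2 were not called. MDM4, the MDM2 relative that also holds p53 in check, had a log2 fold change of 0.04 (95% interval -0.13 to 0.20, adjusted p = 0.786 in edgeR's test), negative on FPKM. ATM, the kinase that signals DNA breaks to p53, had -0.02 (95% interval -0.22 to 0.19, adjusted p = 0.929, edgeR), positive without siControl replicate 3. G3BP2, the stress granule protein that the study paired with PSF, had 0.12 (95% interval -0.14 to 0.38, adjusted p = 0.537, edgeR), negative on rescaled FPKM. The paper reports that PSF knockdown lowered both mRNA and protein of G3BP2. Its legend for that mRNA names qRT-PCR in another cell line, NB1, with siPSF number 1, so the assays differ.

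Of 23 measured genes in this list 4 were called higher and 3 lower, beside 6.65% and 8.27% of all tested genes, and without siPSF replicate 3 the counts were 5 and 3. That library was the lowest siPSF library for 8 of the 23, near the 38.6% of all tested genes. RPL11 and RPL5 encode ribosomal proteins that can bind and block MDM2. RPL11 was at 608, 591 and 513 CPM in siControl and 1027, 1066 and 1157 CPM in siPSF, highest in siPSF replicate 3. Its log2 fold change was 0.92 (adjusted p = 1.08e-04 in edgeR's test, standard error 0.09). RPL5 was at 1009.9, 958 and 869.9 CPM in siControl and 1491, 1468 and 1636 CPM in siPSF, and its log2 fold change was 0.70 (adjusted p = 4.97e-04, edgeR, standard error 0.09). Both calls held without any 1 library, but genes of this family share reads with pseudogenes, and how such reads were counted is not given in the sources used here.

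TRIM25, a ubiquitin ligase, rose by 0.44 on the log2 scale (adjusted p = 0.0135, edgeR), a call lost without siControl replicate 2 or 3 (0.0698 and 0.0565). CHEK2, a checkpoint kinase, rose by 0.36 (adjusted p = 0.0296, edgeR), lost without siControl replicate 1 or 2 or siPSF replicate 1 or 2 (0.0592 to 0.146). The cofactors called lower were 3. HIPK2, a kinase of p53, had a log2 fold change of -0.56 (adjusted p = 0.00155, edgeR) and CREBBP, an acetyltransferase, one of -0.40 (adjusted p = 0.00562, edgeR), and both held without any 1 library. EP300, the close relative of CREBBP, had -0.37 (adjusted p = 0.0283, edgeR), lost without siControl replicate 2 or 3 or siPSF replicate 1 or 3 (0.0544 to 0.0973).

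**Figure D4:**
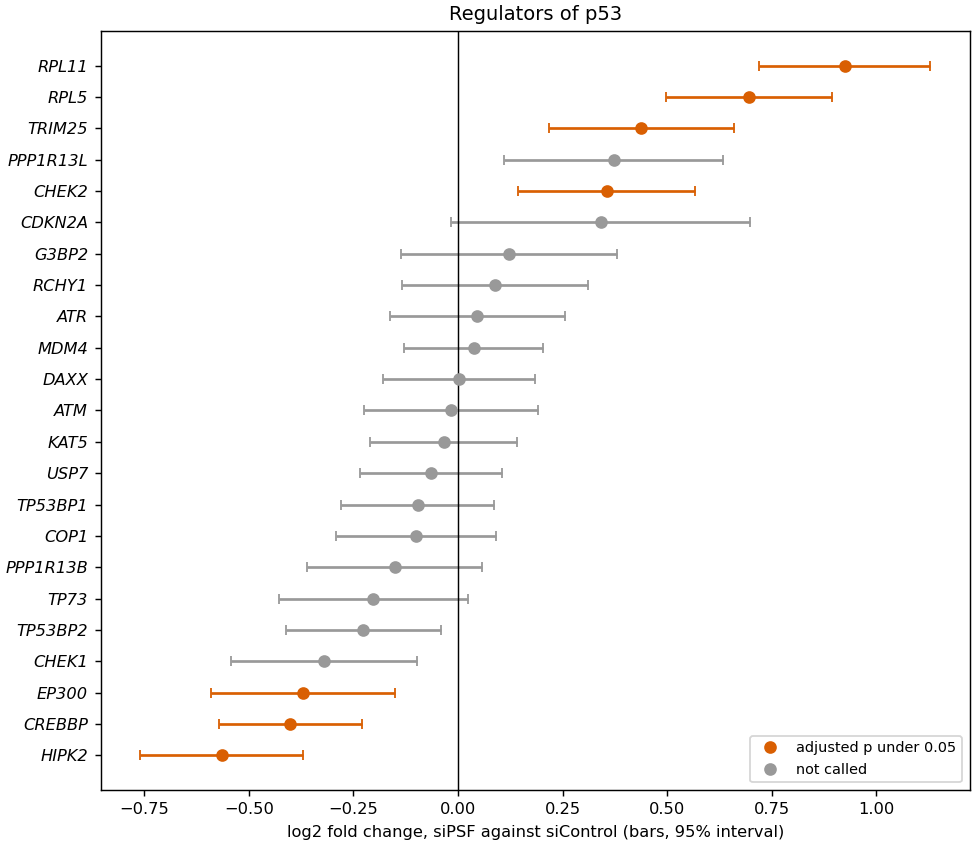
Log2 fold change of the regulators of p53, siPSF against siControl over all 6 libraries, with 95% intervals, genes called at an adjusted p under 0.05 in orange. RPL11 is at 0.92 and HIPK2 at -0.56.

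Some cell cycle genes that p21 and the DREAM complex are known to repress fell. Of 20 measured, 5 were called lower, beside 8.27% of all tested genes, and 0 higher. Without siPSF replicate 3 the counts were again 5 and 0. DESeq2 and limma called 0 higher too. Once FPKM was rescaled limma called 11 lower, but there the median log2 fold change of all genes was -0.16. The median log2 ratios of these 20 genes in siPSF replicates 1, 2 and 3 were -0.05, -0.18 and -0.18, so replicate 3 did not stand apart here. The proliferation marker Ki-67, encoded by MKI67, was at 159, 149 and 176 CPM in siControl and 109, 108 and 112 CPM in siPSF, and MKI67 fell, with -0.56 as its log2 fold change (adjusted p = 0.00115, edgeR, standard error 0.08). E2F1, a transcription factor of S phase entry, had -0.49 (adjusted p = 0.00285, edgeR). Both held without any 1 library. AURKB, a mitotic kinase, had -0.39 (adjusted p = 0.0183, edgeR), lost without siControl replicate 1 or 2 or siPSF replicate 2 (0.0519 to 0.0675). FOXM1, a mitotic transcription factor, had -0.36 (adjusted p = 0.0231, edgeR), lost without siControl replicate 2 or siPSF replicate 1 (0.0962 and 0.0543).

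Of 19 measured relatives and partners of the 9 genes, 0 were called higher and 2 lower by edgeR, beside 6.65% and 8.27% of all tested genes. At an unadjusted p under 0.05, 0 were higher, against 14.4% of all tested genes. Without siPSF replicate 3, 0 were called higher and 1 lower. DESeq2 and limma also called 0 higher, with 3 lower in DESeq2 and 5 in limma. Over the 14830 genes that limma tested on log2(FPKM + 0.5), 1782 were called lower. The share for DESeq2 is not given here, and edgeR's 8.27% is no background for its count. On rescaled FPKM limma called 7 lower, where the median log2 fold change of all genes was -0.16. CCND1, the cyclin D1 whose kinases p21 acts on, was at 1319, 1403 and 1553 CPM in siControl and 951, 883 and 649.8 CPM in siPSF. Its log2 fold change was -0.78 (adjusted p = 0.00199, edgeR, standard error 0.13), and the call held without any 1 library. SESN3, the sestrin driven mainly by FOXO factors, had -0.53 (adjusted p = 0.0422, edgeR), in contrast to SESN1 at 0.51; its call was lost without siControl replicate 2 or 3 or siPSF replicate 2 or 3 (0.0608 to 0.173) and without a filter on low counts (0.0709).

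Some of the 9 genes, GDF15 among them, are also known to respond to ATF4, the transcription factor of the integrated stress response. Of 15 measured genes of that response, ATF4 itself was called higher and ATF3 lower. These counts are near the 6.65% higher and 8.27% lower of all tested genes. Without siPSF replicate 3 only ATF3 was called. ATF4 was at 433, 451 and 406 CPM in siControl and 510.2, 528 and 529 CPM in siPSF, a log2 fold change of 0.28 (adjusted p = 0.0360, edgeR), and its call was lost without any 1 of the 6 libraries (0.0582 to 0.101) or without a filter on low counts (0.0517). ATF3, which p53 can also induce, had -0.46 (adjusted p = 0.00926, edgeR), and its call held without any 1 library. The median of the list was -0.04.

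The genes with the pattern most like the 9 were sought among 14670 others with a mean of at least 1 CPM, by Pearson's r of log2 CPM over the 6 libraries with the mean of the 9 genes. The 5 highest were GCLM, METTL7A, LINC02691, LPIN3 and PINCR, with r of 0.993, 0.993, 0.993, 0.993 and 0.991. They were chosen for this likeness, and the 6 points share depth and groups, so r is a description. GCLM, a subunit of the enzyme of glutathione synthesis, was at 10.6, 10.1 and 10.4 CPM in siControl and 14.95, 14.5 and 10.96 CPM in siPSF. PINCR, a noncoding RNA known as induced by p53, was at 1.78, 1.36 and 1.64 CPM in siControl and 4.28, 4.45 and 1.84 CPM in siPSF, so that siPSF replicate 3 was near the controls again. For LINC02691 the sign of the difference was negative on FPKM, in contrast to the counts.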

How the data were processed

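For 6 libraries of SH-SY5Y cells, the authors deposited 1 table of raw read counts and FPKM values per gene. The paper's methods describe poly(A) selection, removal of rRNA reads with Bowtie 2, mapping with TopHat to hg38 and counting on RefSeq, while the submitters' processing notes name Trimmomatic, HISAT2 2.1.0 and StringTie 2.1.3b with GRCh38. The methods name the normalized unit RPKM and the table FPKM; for both, the authors divided reads by exon length and mapped reads. The methods and labels name different TruSeq kits, and whether counting used strand is not given in the sources used here, so counts of CDKN1A, MDM2, SESN1 and TP53INP1, which overlap genes on the other strand, are uncertain. The lowest count is 1, and genes with a count of 0 in any library were not analysed here.

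The counts were filtered with filterByExpr (19694 genes kept), TMM-scaled (factors 0.964 to 1.053) and tested with edgeR 4.0.16 (quasi-likelihood, Benjamini-Hochberg over all genes kept, called at an adjusted p under 0.05) in R 4.3.3. The common biological coefficient of variation was 12.6%. The fit was tested on simulated data. No pair of libraries was alike within sampling noise (chi-square per degree of freedom of at least 20.8). Alternatives were other scalings, no filter, DESeq2 1.42.0, limma 3.58.1 on log2(FPKM + 0.5 or 0.1), a replicate block and leaving out each library. Sequences came from hg38 and RefSeq's promoter table; gene positions came from RefSeq, where 97.8% of gene IDs were found.

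Named are the 9 genes, SFPQ, MDM4, ATM, G3BP2, up to 4 genes per list and direction with the smallest adjusted p among those called, and the 5 genes most like the set; any other was chosen after its values were seen. The members and gene lists were chosen with earlier results of these data known, and some genes of the lists are not reported here.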

Additional observations from a re-analysis of the deposited data

How the results depend on the processing

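DESeq2's size factors, upper quartile factors and DESeq2's Wald test kept the 3 calls among the 9 p53 targets, and CCNG1 and SFPQ were called under every alternative run. Without a filter on low counts FDXR was not called (log2 fold change 0.65, adjusted p = 0.0700), and 7 of the other listed genes were called higher in place of 13. In limma on log2(FPKM + 0.5), FDXR had 0.54 (adjusted p = 0.0894), 6 and 17 of the other listed genes were called higher and lower (13 and 11 in edgeR), and 736 of all genes were called higher (1310 in edgeR) and 1782 lower (1628). With an offset of 0.1 FDXR had 0.55 (adjusted p = 0.0918), the listed genes again gave 6 and 17, and 737 genes were called higher. MDM4 and LINC02691 turned to -0.0356 and -0.33 at an offset of 0.5 and to -0.0365 and -0.35 at 0.1. Rescaling FPKM to 1 common sum moved the median of all genes to -0.16, so that 463 genes were called higher and 3409 lower, 1 of the 9 p53 targets was called (CCNG1), and the other listed genes gave 4 and 32. There SESN1 had 0.39 (adjusted p = 0.0890), FDXR 0.43 (0.135), TP53INP1 -0.0201, MDM4 -0.15, G3BP2 -0.0758 and LINC02691 -0.44, and the median of the 9 genes lay 0.26 above that of all genes, beside 0.30 in edgeR. The cause of these shifts was not tested.

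Leaving out 1 library gave 1 to 8 of the 9 genes called higher, 0 lower, 4 to 36 of the other listed genes higher and 6 to 10 lower, and 572 to 1405 of all genes higher and 928 to 1735 lower. The lowest counts of all genes came without siControl replicate 2 and the highest without siPSF replicate 3. The log2 fold change ran from 0.17 to 0.64 for CDKN1A, 0.12 to 0.40 for MDM2, 0.72 to 0.91 for CCNG1, 0.40 to 0.67 for SESN1, 0.10 to 0.56 for GDF15, 0.14 to 0.30 for ZMAT3, 0.19 to 0.47 for RRM2B, 0.0835 to 0.37 for TP53INP1 and 0.49 to 0.86 for FDXR. SFPQ ran from -1.07 to -0.90. ATM ran from -0.0966 to 0.0801, positive without siControl replicate 3.

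The shared replicate numbers gave no clear sign of paired samples. Deviations from the group means correlated at -0.04, 0.21 and 0.10 for numbers 1, 2 and 3 over 14679 genes. By the same measure 3 of 6 libraries correlated best with their own number. With 3 libraries per group this check cannot exclude a pairing. With the replicate number as a block, 3 of the 9 genes were called higher, 1389 genes were called higher and 1640 lower, and TRIM22, SESN3 and METTL7A were not called. Every member had at least 2721 counts per library, so its counting error was small beside the variation of 12.6% between libraries.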
